A study of Mus musculus with 16 samples.

Results

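The 10 genes described here encode the cyclins, the cyclin-dependent kinases (CDKs) and the opposing switches that drive entry into DNA replication and mitosis. They are Cdk1, Cdk2, Ccna2, Ccnb1, Ccnb2, Ccne1, Ccne2, Cdc25a, Cdc25b and Wee1. They were taken by symbol, and all 10 were found among the 49585 gene identifiers of the deposited gene tables. The samples were mouse embryos at the 2-cell stage, whose polyadenylated RNA was read by Smart-seq2, which covers whole transcripts and keeps no strand. Culture was in KSOM medium, and all embryos came from a cross of paternal DBA with maternal F1 (C57BL/6J × CBA/H) animals. The groups were 4 libraries of non-injected embryos, 6 whose zygotes received LacZ double-stranded RNA (the LacZ control), and 6 whose zygotes received Suv39h2 double-stranded RNA (the knockdown). LacZ is a bacterial gene, so both injected groups share the injection and the double-stranded RNA. The series design speaks of pools of 5 embryos and the extraction label of a single embryo. Another label names Suv39h1 messenger RNA, which none of the 3 groups received according to the labels that name what was injected.

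Suv39h2, the targeted gene, encodes a methyltransferase of lysine 9 of histone H3. In the authors' deposited table its log2 fold change of knockdown over LacZ control was -1.95 ± 0.28 (standard error) (DESeq2, adjusted p = 4.72e-08). Markers of the 2-cell embryo, fixed with the other lists, were present: 6 of 6 were detected, with mean normalized counts of 71.2 to 2987. The 5 markers of oocyte inheritance stood at 576 to 8077, with a median of 3317 beside 508 for the 2-cell markers. These counts are not divided by length. Of 9 cumulus and granulosa markers 7 had a mean normalized count under 10, Inhba was at 0, and Tnfaip6 was highest at 36.5. All 5 sperm markers were under 10, with Prm2 highest at 7.78. Among these cumulus and sperm markers only Cyp19a1 and Tnfaip6 had an adjusted p in either knockdown comparison, so no other could be called there. DESeq2 called 0 of these markers in any comparison. Of all tested genes it called 0.899% between knockdown and LacZ control, 0.792% between LacZ control and non-injected, and 15.2% between knockdown and non-injected. Cyp19a1 and Tnfaip6 stood at 0.51 and 0.72 in knockdown over non-injected and at -0.12 and 0.12 in knockdown over LacZ control. At an unadjusted p under 0.05 there was 1 cumulus marker, in knockdown over non-injected. No value of a single library was used, since the tables hold 1 mean over all libraries per gene, so the depth and the spread between libraries are unknown. Whether replicates came from separate collections is not stated, and the p-values may then measure only technical spread.

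A CDK is active only when bound to a cyclin. Cyclin E with Cdk2 starts DNA replication, cyclin A serves Cdk2 and then Cdk1, and cyclin B with Cdk1 drives mitosis. Wee1 blocks these kinases by phosphorylating the ATP-binding site, and the Cdc25 phosphatases remove that phosphate. Transcription of many of these genes in dividing cells depends on E2F factors and on the DREAM and MuvB complexes, which bind E2F sites and the cell-cycle homology region (CHR) near the start site. In the early mouse embryo much of the messenger RNA for the first divisions was stored in the oocyte, and the embryo's own genes take over during the 2-cell stage.

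The promoter of Cdk1, which was the member called lower in the knockdown, and that of Cdc25b, the member called higher than in non-injected embryos, are shown with those of Cdk2 and Ccnb1, which were not called. Each is read 5′ to 3′ on the strand of the gene and stops before the first annotated transcribed base in RefSeq and in GENCODE. The build is GRCm38 and the sequences are RefSeq's (GRCm38.p6). Capitals mark the motifs, which were searched on both strands. The CCAAT box was searched as CCAAT. For the CHR core the words were TTTGAA and, as its variant, TTCGAA. E2F motifs were searched as TTTGGCG, and also as TTTCGCG and, further, as TTTCCCG.
Cdk1 (chr10:69352939-69353162, minus strand): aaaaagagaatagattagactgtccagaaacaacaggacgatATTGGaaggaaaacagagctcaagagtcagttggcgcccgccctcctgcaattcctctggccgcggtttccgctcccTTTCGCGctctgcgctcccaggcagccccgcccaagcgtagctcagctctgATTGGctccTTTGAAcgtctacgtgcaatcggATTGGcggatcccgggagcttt
Cdk2 (chr10:128705052-128705301, minus strand): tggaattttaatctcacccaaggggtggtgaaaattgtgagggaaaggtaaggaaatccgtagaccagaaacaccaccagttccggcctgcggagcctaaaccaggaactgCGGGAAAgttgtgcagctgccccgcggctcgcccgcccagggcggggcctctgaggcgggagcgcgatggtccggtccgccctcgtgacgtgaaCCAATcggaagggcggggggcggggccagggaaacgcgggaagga
Ccnb1 (chr13:100786571-100786736, minus strand): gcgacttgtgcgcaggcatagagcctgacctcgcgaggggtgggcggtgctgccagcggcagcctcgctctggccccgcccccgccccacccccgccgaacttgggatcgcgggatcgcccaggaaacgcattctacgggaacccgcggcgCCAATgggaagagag
Cdc25b (chr2:131186698-131186947, plus strand): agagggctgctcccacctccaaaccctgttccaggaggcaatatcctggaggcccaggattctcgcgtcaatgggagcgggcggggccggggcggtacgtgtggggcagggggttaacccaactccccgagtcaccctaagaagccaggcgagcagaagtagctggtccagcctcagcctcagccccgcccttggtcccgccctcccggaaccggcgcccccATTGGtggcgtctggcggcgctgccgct

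Promoter windows of 300 bases, from 250 before to 50 after the RefSeq start, were given for 7 of the 10 genes. Ccna2, Ccne2 and Wee1 were not among them. Of these 7 windows 6 held a CCAAT box, against 37.4% of 32851 promoters. A CHR core was found in 3 (Cdk1, Ccnb2 and Cdc25b), against 19.2% of promoters, and an E2F motif in 3 (Cdk1, Cdk2 and Cdc25a), against 5.58%. Cdk1 alone among the 7 held all 3 kinds, which 0.393% of promoters do. Its window had 3 CCAAT boxes, 2 CHR cores at 71 and 15 bases before the start, and 1 E2F motif at 131 bases before it. The CHR core at 15 lies beyond the stretch printed above. So do the CHR core of Cdc25b, 8 bases after its start, and the CCAAT box of Ccnb1 at 67 bases before its start. The window of Ccnb2, the second B-type cyclin, held 3 CCAAT boxes at even spacing and 2 CHR cores, at 167 bases before and 5 bases after the start. The window of Ccnb1 had 2 CCAAT boxes and neither of the other motifs, and that of Ccne1 had none of them. No matches overlapped in these windows. A match describes letters only, and binding was not measured.

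**Figure D1:**
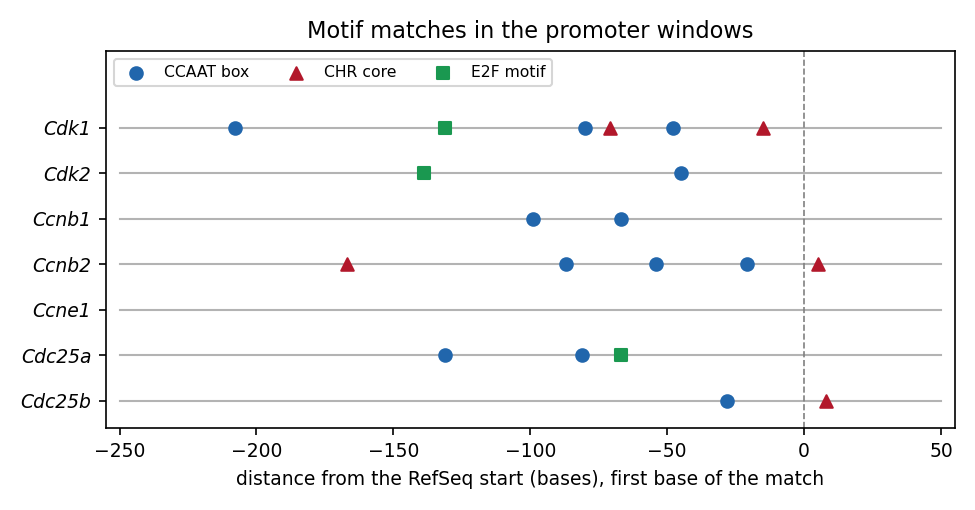
Matches to CCAAT boxes (circles), CHR cores (triangles) and E2F motifs (squares) in the promoter windows of 7 genes, by the distance in bases of the first matched base from the RefSeq start (dashed line). Cdk1 is the only row with all 3 symbols, and Ccne1 has none.

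As a mean over all libraries, 1 cyclin each of the B, E and A types had the highest level of the 10 genes, and the switches had the lowest. Levels are compared as the deposited mean normalized count divided by the length of all merged exons in kilobases. Ccnb1, the main mitotic cyclin, stood at 2025 per kilobase, Ccne1 (cyclin E1) at 1786 and Ccna2 (cyclin A2) at 1243. Ccna2, the lowest of these 3, lay above 99.38% of the 32861 genes that have a mean count and an exon length. Cdk1 followed at 583 per kilobase, Ccne2 (cyclin E2) at 390, Ccnb2 (cyclin B2) at 349 and Cdk2 at 269. The switches were lower: the phosphatase Cdc25a stood at 59.5, its relative Cdc25b at 49.7 and the inhibitory kinase Wee1 at 44.8 per kilobase. Even Wee1 was above 80.7% of genes, and the median gene stood at 3.38 per kilobase. From Wee1 to Ccnb1 the range was 45.2-fold, or 76.6-fold with the longest coding transcript as the length. The order has no error attached, since 1 mean per gene is given and neighbours cannot be tested. With the longest coding transcript as the length, Cdk2 moved from the seventh place to the fourth (695 per kilobase), and its exon sum includes retained introns. Cdk1 at 657 and Cdk2 at 695 per kilobase were then nearly level.

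**Figure D2:**
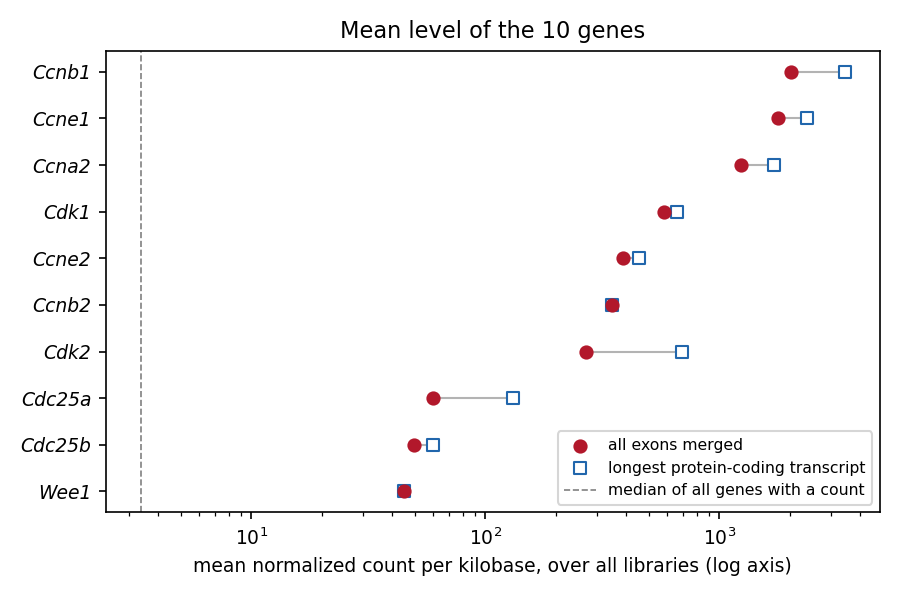
Mean normalized count per kilobase over all libraries (log axis) for each gene, with all exons merged (filled circles) or the longest protein-coding transcript (open squares) as length. The dashed line is the median of all genes with a count (3.38). The switches Cdc25a, Cdc25b and Wee1 form the lowest group on both lengths.

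Some reads of these genes cannot be assigned with certainty. Without strand, exons of Ccna2 share 510 bases with Exosc9, those of Ccne2 share 609 with Ints8, those of Cdc25b share 92 with Spef1 and those of Cdk2 share 34 with Pmel, all on the opposite strand. Exosc9 had a mean normalized count of 360 and Ints8 of 617, beside 5075 for Ccna2 and 1361 for Ccne2. Ccnb1 has processed copies elsewhere in the genome. The closest is Ccnb1-ps on chromosome 7, 99.2% identical over 1287 bases, at a mean normalized count of 51.0, or 0.597% of that of Ccnb1. Gm12856 on chromosome 4 (98.1% over 1294 bases) stood at 30.8, or 0.360%. No such copy of at least 200 bases at 90% identity was found for Cdk1, Cdk2, Ccnb2, Ccne1, Cdc25a, Cdc25b or Wee1 among GENCODE transcripts.

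The first comparison, knockdown over LacZ control, asks what less Suv39h2 changes among injected embryos. Of the 10 genes only Cdk1, the kinase that starts mitosis, was called, that is, had a deposited adjusted p under 0.05. Cdk1 lies on chromosome 10 (69335146 to 69352938, minus strand, GRCm38) and had a mean normalized count of 2875. In the authors' deposited table it fell by 0.76 ± 0.21 on the log2 scale, to a level 1.70-fold lower in the knockdown (DESeq2, adjusted p = 0.0410). The fold change was below that of all but 1.94% of tested genes. In embryos analysed whole, less RNA in every cell and fewer cells that hold it cannot be told apart. Being called is rare here: 0.899% of 15572 tested genes were, 0.366% higher and 0.533% lower, and 1.2% of those with a mean count of 100 or more. The call sits close to the threshold, and with adjustment over every gene that has a p-value it ended (adjusted p = 0.0625, range over 4 adjustments 0.0326 to 1).

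The cyclin partners of Cdk1 had smaller differences between knockdown and LacZ control. Ccnb1 (chromosome 13, 100778650 to 100786570) differed by -0.14 ± 0.18 in the authors' deposited table, with a 95% interval of -0.48 to 0.21. Ccnb2 (chromosome 9, 70407692 to 70421547) stood at 0.08 ± 0.20 in the authors' deposited table, and its interval ran from -0.32 to 0.47. For Ccna2 (chromosome 3, 36564865 to 36572150) the authors' deposited table gave -0.12 ± 0.12, the smallest standard error of the 10, and an interval of -0.35 to 0.12. The interval of Cdk1 itself, -1.17 to -0.35, overlaps that of Ccnb1. A test of Cdk1 against its cyclins could not be run without values per library.

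The replication kinase and its cyclins were not called either. Cdk2 (chromosome 10, 128697939 to 128705031) stood at 0.11 ± 0.19 in the authors' deposited table, with an interval of -0.27 to 0.48. Ccne1 (chromosome 7, 38097984 to 38107534) was nearly level, with -0.04 ± 0.16 in the authors' deposited table (adjusted p = 0.931), a value whose sign turned to 0.04 when centred on well-expressed genes. Ccne2 (chromosome 4, 11191351 to 11204779) had the second-lowest value of the 10, -0.32 ± 0.27 in the authors' deposited table (adjusted p = 0.620). Among the switches, the authors' deposited table gave 0.03 ± 0.27 for Cdc25a (chromosome 9, 109875579 to 109893895), 0.39 ± 0.27 for Cdc25b (chromosome 2, 131186949 to 131198497) and 0.23 ± 0.27 for Wee1 (chromosome 7, 110122046 to 110143286). The interval of Cdc25b, -0.14 to 0.92, includes a fold as large as that of Cdk1 in the opposite direction. Over the 10 genes 5 values were above 0 and 5 below, with a median log2 fold change of -0.0042, beside 0.02 over all tested genes and -0.08 over those with a mean count of 100 or more.

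**Figure D3:**
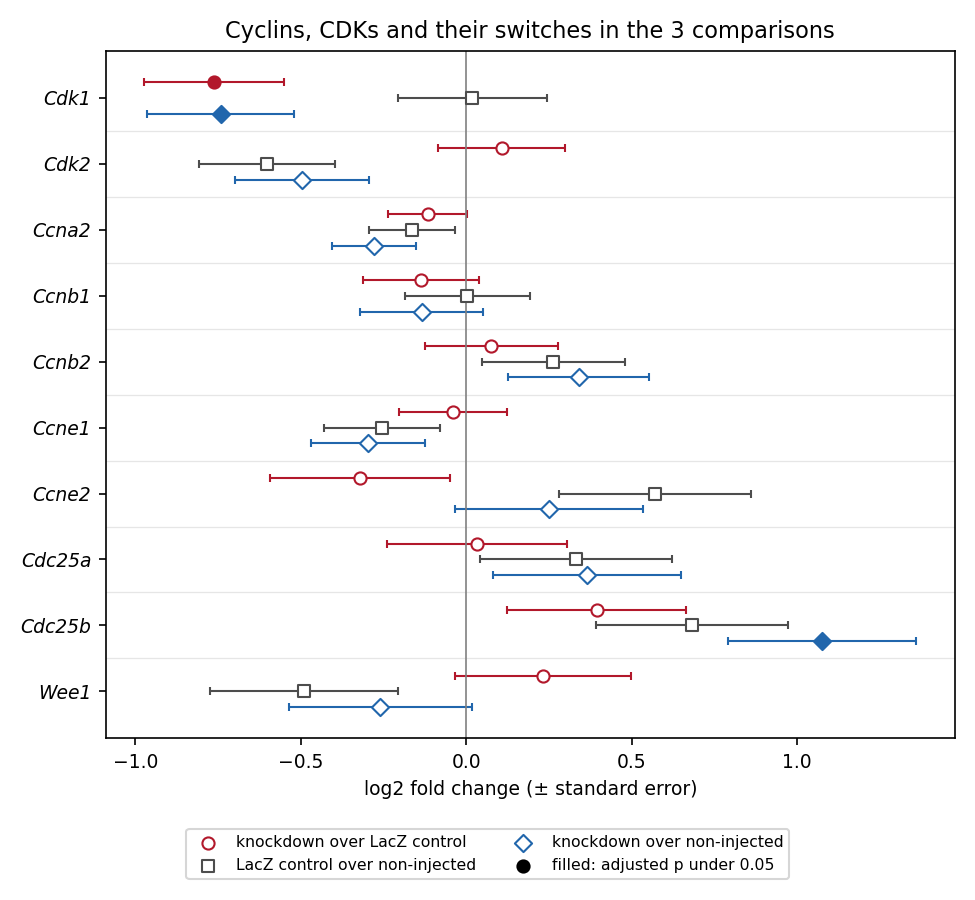
Deposited log2 fold changes (horizontal axis) with standard errors (bars) of the 10 genes in knockdown over LacZ control (circles), LacZ control over non-injected (squares) and knockdown over non-injected (diamonds). Filled symbols have an adjusted p under 0.05: Cdk1 in both knockdown comparisons and Cdc25b in knockdown over non-injected.

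The second comparison, LacZ control over non-injected, shows what goes with injection and double-stranded RNA without the Suv39h2 target. None of the 10 genes was called by DESeq2, against 0.792% of 29288 tested genes (0.529% higher, 0.263% lower, and 0.919% of those with a mean count of 100 or more), and 2 had an unadjusted p under 0.05. These were Cdk2 and Cdc25b, beside 7.39% of all tested genes and 14.7% of those with a mean count of 100 or more at such a p. Cdk2 stood at -0.60 ± 0.21 in the authors' deposited table (unadjusted p = 0.00354, adjusted p = 0.217), lower than all but 2.70% of tested genes. Cdc25b stood at 0.68 ± 0.29 in the authors' deposited table (unadjusted p = 0.0168, adjusted p = 0.443). Cdk1 was level at 0.02 ± 0.23 in the authors' deposited table, with an interval of -0.42 to 0.46.

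Both E-type cyclins, which serve the same kinase, had estimates of opposite sign after LacZ injection. Ccne2 stood at 0.57 ± 0.29 in the authors' deposited table (unadjusted p = 0.0503, adjusted p = 0.678) and Ccne1 at -0.26 ± 0.18 (adjusted p = 0.905). For Wee1 the authors' deposited table gave -0.49 ± 0.28 and for Cdc25a 0.33 ± 0.29, with adjusted p of 0.785 and 0.998. The mitotic cyclins lay nearer to 0: the authors' deposited table gave 0.0030 ± 0.19 for Ccnb1, 0.26 ± 0.22 for Ccnb2 and -0.16 ± 0.13 for Ccna2. In this comparison 6 values were above 0 and 4 below, with a median of 0.01, beside 0.0032 over all tested genes.

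The third comparison, knockdown over non-injected, joins both differences. Its log2 fold change is the sum of the other two to within 4.16e-08 for every gene, and it shares libraries with each, so it is no independent evidence. Cdk1 fell and Cdc25b, a phosphatase that activates Cdk1 at entry into mitosis, rose. In the authors' deposited table Cdk1 fell by 0.74 ± 0.22 (DESeq2, adjusted p = 0.0110), 1.67-fold lower in the knockdown, with 7.15% of tested genes lower still. Cdc25b rose by 1.08 ± 0.28 in the authors' deposited table (DESeq2, adjusted p = 0.00435), 2.11-fold higher, and above 97.4% of tested genes. That is 2 calls among 10 genes where 15.2% of 14948 tested genes were called (7.41% higher and 7.76% lower), so the share is near the background. Among genes with a mean count of 100 or more, as all 10 have, 22.5% were called.

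These 2 calls split differently over the other comparisons. For Cdk1 the authors' deposited table gave -0.76 between knockdown and LacZ control and 0.02 between LacZ control and non-injected. For Cdc25b it gave 0.39 and 0.68 in the same order, neither of them called. Cdk2 was the reverse of Cdk1: at -0.49 ± 0.20 in the authors' deposited table over non-injected embryos (adjusted p = 0.0796), it had 0.11 between knockdown and LacZ control and -0.60 between LacZ control and non-injected. Whether Cdk1 and Cdk2 differ in this pattern was not tested. Cdc25b had a mean normalized count of 185, the second lowest of the 10, and 92 bases of its exons overlap Spef1.

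The remaining members were not called against non-injected embryos. Ccna2 stood at -0.28 ± 0.13 (adjusted p = 0.117) and Ccne1 at -0.30 ± 0.17 (adjusted p = 0.236) in the authors' deposited table. The B-type cyclins differed in sign: the authors' deposited table gave -0.13 ± 0.19 for Ccnb1, with an interval of -0.50 to 0.23, and 0.34 ± 0.21 for Ccnb2, with adjusted p of 0.708 and 0.275. Ccne2 (0.25 ± 0.29), Cdc25a (0.37 ± 0.28) and Wee1 (-0.26 ± 0.28) had adjusted p of 0.596, 0.392 and 0.576 in the authors' deposited table. Here 4 values were above 0 and 6 below, with a median of -0.20, beside 0.05 over all tested genes and -0.08 over those with a mean count of 100 or more. The mean over the 10 genes was -0.02, and the median centred on genes with a mean count of 100 or more was -0.11.

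**Figure D4:**
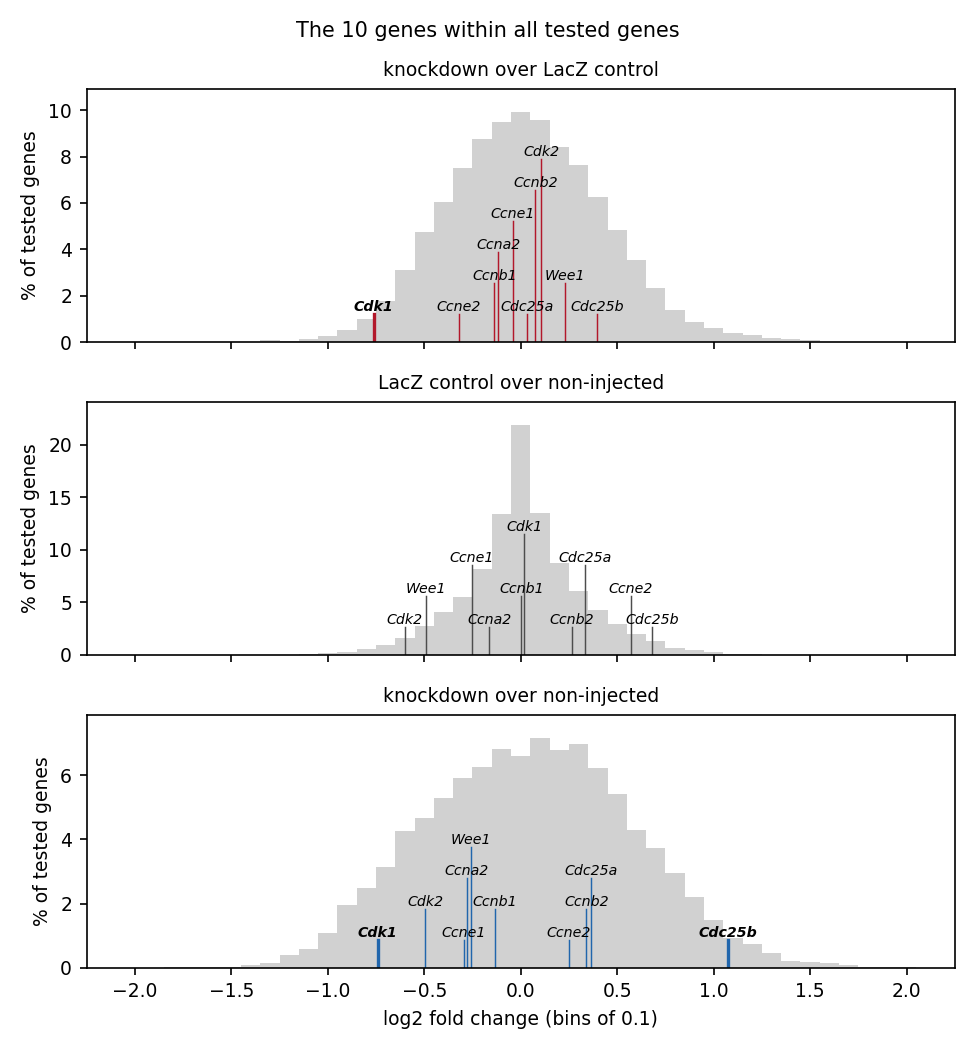
Share of tested genes (grey bars, percent) by deposited log2 fold change in bins of 0.1 for each comparison, with the 10 genes marked by lines whose height only separates the names. Bold names have an adjusted p under 0.05. Of tested genes, 1.94% lie below Cdk1 in knockdown over LacZ control, 7.15% in knockdown over non-injected and 52.5% in LacZ control over non-injected.

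Other regulators of the cycle were followed in 5 lists: 19 other cyclins, 16 other CDKs, 21 other CDK switches, 8 CDK inhibitors and 21 genes of the RB, E2F and DREAM group. Between knockdown and LacZ control DESeq2 called 0 of the 81 with an adjusted p, beside 0.899% of all tested genes. At an unadjusted p under 0.05 there were 7 higher and 15 lower, 27.2% of the 81, beside 14.7% of all tested genes and 19.5% of those with a mean count of 100 or more. The other switches had the lowest median, -0.27, with 5 values above 0 and 16 below. The one with the smallest p was Chek2, a DNA damage checkpoint kinase, with -0.67 ± 0.19 in the authors' deposited table (adjusted p = 0.0537). Medians were -0.18 for other cyclins, -0.16 for other CDKs, 0.28 for CDK inhibitors and 0.06 for the RB, E2F and DREAM group. In these 4 lists, in the same order, the smallest p belonged to Ccng1, a p53-induced cyclin (0.99 ± 0.27, adjusted p = 0.0519), Cdk5 (0.90 ± 0.37), Cdkn2b, an inhibitor of Cdk4 and Cdk6 (1.28 ± 0.39, adjusted p = 0.0579), and Tfdp1, the partner of E2F (0.44 ± 0.18), in the authors' deposited table. Cdkn2b had a mean normalized count of only 23.8. It stood at -1.03 ± 0.40 between LacZ control and non-injected, and at 0.25 ± 0.39 between knockdown and non-injected (DESeq2, adjusted p = 0.787). Ccng1 and Chek2 passed with adjustment over genes with a mean count of 100 or more (adjusted p = 0.0393 and 0.0413), and ranged up to 1 over the 4 adjustments.

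Between LacZ control and non-injected embryos DESeq2 again called 0 of 85, beside 0.792% of all tested genes. At an unadjusted p under 0.05 there were 5 higher and 6 lower, 12.9% of the 85, which lies between the 7.39% of all tested genes and the 14.7% of those with a mean count of 100 or more. List medians ran from -0.09 for CDK inhibitors and for other CDKs to 0.08 for the other switches. The gene with the smallest p in each of the 5 lists was Cdk4, the partner of cyclin D (-0.65 ± 0.22), Chek2 (-0.58 ± 0.20), Cdkn2b (-1.03 ± 0.40), Ccnf, an F-box protein of the cyclin family (-0.68 ± 0.31), and Rbl2, an RB relative (0.60 ± 0.33), in the authors' deposited table. Their adjusted p ran from 0.212 to 0.753.

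Between knockdown and non-injected embryos 16 of 81 were called, 7 higher and 9 lower. The share called was 15.2% of all tested genes and 22.5% of those with a mean count of 100 or more. Of the other switches 4 fell and 1 rose. Chek2 fell by 1.25 ± 0.20 in the authors' deposited table (DESeq2, adjusted p = 2.21e-06), and Aurka, a kinase of centrosomes and mitotic entry, by 0.82 ± 0.22 (adjusted p = 0.00467). Ppp2r2a, a regulatory subunit of phosphatase PP2A, fell by 0.81 ± 0.17 in the authors' deposited table (DESeq2, adjusted p = 0.000326). Between knockdown and LacZ control Aurka stood at -0.29 and Ppp2r2a at -0.54. Between LacZ control and non-injected they stood at -0.53 and -0.27, and neither was called in these comparisons. Skp2, which marks CDK inhibitors for destruction, fell by 0.78 and is named after its value was seen, as are Ccni and Ccnj below.

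Wee2, the oocyte relative of Wee1, rose by 0.68 ± 0.17 in the authors' deposited table (DESeq2, adjusted p = 0.00214). It was far more abundant than Wee1, at 3238 per kilobase beside 44.8. For the pair the authors' deposited table gave 0.31 (Wee2) and 0.23 (Wee1) between knockdown and LacZ control, and 0.36 and -0.49 between LacZ control and non-injected, none of them called.

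Of other cyclins 3 fell and 3 rose. Ccnl2, a splicing cyclin, fell by 0.68 ± 0.18, Ccnt1, the cyclin of the elongation kinase P-TEFb, by 0.61 ± 0.20, and Ccnf by 0.92 ± 0.30 in the authors' deposited table (DESeq2, adjusted p = 0.00372, 0.0206 and 0.0237). Ccng1 rose by 0.89 ± 0.28 (adjusted p = 0.0284), and Ccni (0.86) and Ccnj (0.65) rose as well in the authors' deposited table. Among other CDKs Cdk10 fell by 1.11 ± 0.32, while Cdk5 rose by 1.21 ± 0.38 and Cdk20 by 0.74 ± 0.25 in the authors' deposited table (DESeq2, adjusted p = 0.0136, 0.0176 and 0.0299). Their mean normalized counts were 39.1, 47.2 and 494. In the same order they stood at -0.16, 0.90 and 0.50 between knockdown and LacZ control, none of them called. Between LacZ control and non-injected the values were -0.95, 0.30 and 0.24, also not called. Tfdp1 rose by 0.62 ± 0.19 and Lin52, a MuvB subunit, fell by 0.74 ± 0.25 in the authors' deposited table (DESeq2, adjusted p = 0.0161 and 0.0292). No CDK inhibitor was called by DESeq2, and Cdkn3 had the smallest p (-0.60 ± 0.30, unadjusted p = 0.0452, adjusted p = 0.160) in the authors' deposited table. In the same comparison 4 of 5 oocyte markers (Gdf9, Bmp15, Oosp1 and Npm2, at 0.71 to 0.97) and 2 of 6 markers of the 2-cell stage (Zscan4c at 0.95 and Tdpoz4 at 1.02) were called higher in the authors' deposited table. Of all tested genes 7.41% were called higher there, and 696 of the 7722 with a mean count of 100 or more. In either direction the shares were 15.2% and 22.5%. Between LacZ control and non-injected these called markers stood at 0.44 (Bmp15) to 0.82 (Tdpoz4). Between knockdown and LacZ control they stood at 0.09 (Gdf9) to 0.43 (Bmp15). None of them was called in either of those comparisons. The part of these markers in the cell-cycle differences was not tested.

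**Figure D5:**
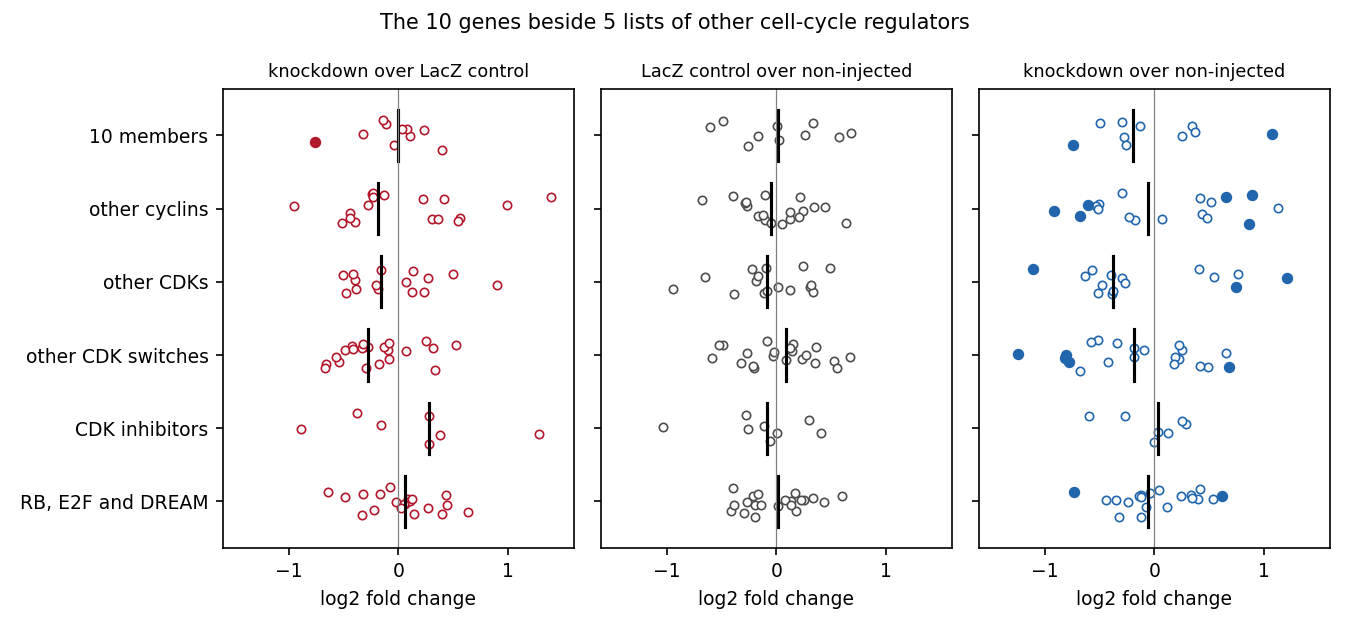
Deposited log2 fold changes (horizontal axis) of the 10 genes and of 5 lists of other cell-cycle regulators in the 3 comparisons, 1 point per tested gene, spread vertically for legibility. Filled points have an adjusted p under 0.05 and black lines are medians. Calls outside the 10 genes appear in knockdown over non-injected only, with 7 higher and 9 lower.

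The genes whose pattern was most like that of Cdk1 were sought among 7722 genes with a mean count of 100 or more. Likeness was the distance between log2 fold changes in the LacZ and the knockdown step, which is 2 values per gene and no per-library profile. The nearest were Snapc1, Tbcb, Ppp2cb, Fau and Fem1a, at distances of 0.0152 to 0.0284. The standard errors of Cdk1 itself, 0.23 in the LacZ step and 0.21 in the knockdown step, are far larger. The choice of these 5 genes is therefore within error. Of these only Fau, a ribosomal protein fused to a ubiquitin-like protein, was also called between knockdown and LacZ control (-0.79 in the authors' deposited table, adjusted p = 0.0350). None of the 5 is among the cell-cycle lists used here.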

How the data were processed

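Per the submitters' processing notes, the tools were STAR 2.5.2b, SAMtools, HTSeq 0.9.1 and DESeq2 1.18.1, on the build GRCm38.p5. RUVSeq factors and shrinkage are known only from the names of the deposited tables, while the sources used here give neither the annotation nor the number of factors. Columns of the deposited tables are, per the file headers, the mean normalized count (a signal over all libraries), the log2 fold change and its error, the Wald statistic (a score), and the p-value before and after adjustment. Shrinkage pulls fold changes towards 0. Benjamini-Hochberg adjustment over genes with a deposited adjusted p gave the deposited values back within 1.84e-05. The 3 repeat tables were not used here, and 0 columns of single libraries were used.

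Symbols, positions and lengths came from GENCODE vM21 (GRCm38), which matched 49326 identifiers (99.5%). Intervals of 95% use the standard error and a normal distribution. Near-identical transcripts were sought with blastn. Adjustments were tested on simulated data. Python 3.11.15, pandas 2.3.3 and scipy 1.17.1 were used. The members and lists were chosen with earlier results of these data known. All 10 members are named. From the other lists, up to 4 called genes per list and comparison are named by the Wald statistic, or the smallest p where none was called. Alternatives were other adjustments, the Wald statistic times the standard error, centring and another length.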

Additional observations from a re-analysis of the deposited data

How the results depend on the processing

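No paired analysis was possible because the tables hold no values per library, and for the same reason no replicate could be left out. The count of members called between knockdown and LacZ control (1) became 0 with adjustment over every p-value and 0 with Holm adjustment, which is stricter by construction. It was 1 over genes with a mean count of 10 or more, or of 100 or more. Against non-injected embryos the 2 calls became 0 with Holm adjustment and were 2 with the other 3. In LacZ control over non-injected the count was 0 under all 4 adjustments. In the other cell-cycle lists, alternatives chosen after seeing the data changed the count of 0 between knockdown and LacZ control to 1 (a mean count of 10 or more) and 2 (100 or more). Against non-injected embryos the 16 calls became 2 with Holm adjustment, and 11 over every p-value (3 higher and 8 lower).

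Centring on genes with a mean count of 100 or more moved values by 0.08 in both knockdown comparisons. It reversed the uncalled Ccne1 between knockdown and LacZ control (from -0.04 to 0.036) and moved the members' median there from -0.0042 to 0.07. The members' mean in that comparison was -0.05, and against non-injected embryos it was -0.02 beside a median of -0.20, or -0.11 centred. With Wald statistic times standard error in place of the shrunken value, Cdk1 was -0.77 and -0.75 in the 2 knockdown comparisons and Cdc25b 1.07 against non-injected. For Cdc25b that is below the deposited 1.08, so the product is no unshrunken value. How far shrinkage moved these values was not tested. With the longest coding transcript as length, levels per kilobase of Ccnb1 (3431), Cdk2 (695) and Cdc25a (131) moved by over 1.5 times. Depth per library is unknown, so no limit from depth could be set.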
